A study of Mus musculus with 9 samples.

Results

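The Cyp2c family is a group of cytochrome P450 genes on mouse chromosome 19. The gene list held 10 members, and 9 of them had a probe set assigned to that gene alone on the array. Cyp2c40 was not analysed here. Each of the 9 had exactly 1 such probe set, and all 9 passed the filter on low signals, out of 12477 genes tested and 18193 genes with a probe set of 1 symbol. Cyp2c44 is a synonym of Cyp2c23, the symbol in the platform annotation, and was matched by its gene identifier. The signals were measured in the livers of 9 female mice of the outbred Crlj:CD1(ICR) stock, purchased at 9 weeks of age and held in quarantine for 1 week. A diet with permethrin at 5000 ppm, a diet with clofibrate at 5000 ppm and the control diet at 0 ppm were each fed to 3 mice for 2 weeks, and each mouse gave 1 array. Permethrin is a pyrethroid insecticide and clofibrate a fibrate drug that lowers blood lipids. A note on the treated samples speaks of rats, whereas their organism, strain and source are mouse.

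CYP2C enzymes sit in the endoplasmic reticulum of hepatocytes, where they add oxygen to drugs, steroids and fatty acids. Several mouse members act on arachidonic acid, turning it into epoxides or hydroxylated products, and Cyp2c70 hydroxylates bile acids on the way to the muricholic acids of rodents. Their transcription in liver depends on HNF4 alpha, and the xenobiotic receptors CAR and PXR can raise some of them. PPAR alpha, the receptor that fibrates activate, controls genes of fatty acid breakdown.

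The stretches around the start sites show how closely some members resemble each other and which members resemble the rest less. The 5 promoters of the members with called changes for which RefSeq sequence was at hand are therefore given here. Each runs from 250 bases before to 50 bases after the start on the gene's own strand, from RefSeq on GRCm38.p6, where 8 of the 10 members had an entry. Cyp2c44 and Cyp2c54 had none. Capitals mark matches, on either strand, to 3 short motifs: CAAAGTCNA, a core of HNF4 sites; AGGTCA, a half-site of nuclear receptors; and TATAAA, the TATA box. The windows are chr19:39006769-39007068 on the plus strand for Cyp2c55, chr19:39286835-39287134 (plus) for Cyp2c29, chr19:39992174-39992473 (plus) for Cyp2c37, chr19:40089429-40089728 (plus) for Cyp2c50 and chr19:40187237-40187536 on the minus strand for Cyp2c70.
Cyp2c55: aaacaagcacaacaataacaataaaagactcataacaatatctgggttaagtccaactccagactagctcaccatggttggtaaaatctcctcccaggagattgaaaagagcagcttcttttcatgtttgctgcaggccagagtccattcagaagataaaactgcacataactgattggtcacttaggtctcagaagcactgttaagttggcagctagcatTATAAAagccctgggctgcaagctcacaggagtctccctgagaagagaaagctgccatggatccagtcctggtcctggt
Cyp2c29: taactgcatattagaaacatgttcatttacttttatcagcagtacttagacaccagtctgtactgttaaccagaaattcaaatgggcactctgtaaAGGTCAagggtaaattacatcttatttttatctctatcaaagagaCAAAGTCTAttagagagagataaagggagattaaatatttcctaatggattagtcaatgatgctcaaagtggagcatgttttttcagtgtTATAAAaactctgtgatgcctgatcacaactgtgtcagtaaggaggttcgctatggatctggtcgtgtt
Cyp2c37: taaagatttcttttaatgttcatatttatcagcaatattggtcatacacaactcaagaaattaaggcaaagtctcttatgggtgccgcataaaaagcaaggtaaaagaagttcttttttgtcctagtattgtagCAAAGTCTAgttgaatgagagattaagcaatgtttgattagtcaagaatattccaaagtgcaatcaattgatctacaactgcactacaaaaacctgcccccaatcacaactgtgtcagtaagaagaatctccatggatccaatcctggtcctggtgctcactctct
Cyp2c50: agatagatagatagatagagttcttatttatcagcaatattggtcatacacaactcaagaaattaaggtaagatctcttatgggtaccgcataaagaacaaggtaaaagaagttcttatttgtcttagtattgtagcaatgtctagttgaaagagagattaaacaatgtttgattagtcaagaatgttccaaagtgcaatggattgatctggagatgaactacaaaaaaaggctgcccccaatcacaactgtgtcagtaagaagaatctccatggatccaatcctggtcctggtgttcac
Cyp2c70: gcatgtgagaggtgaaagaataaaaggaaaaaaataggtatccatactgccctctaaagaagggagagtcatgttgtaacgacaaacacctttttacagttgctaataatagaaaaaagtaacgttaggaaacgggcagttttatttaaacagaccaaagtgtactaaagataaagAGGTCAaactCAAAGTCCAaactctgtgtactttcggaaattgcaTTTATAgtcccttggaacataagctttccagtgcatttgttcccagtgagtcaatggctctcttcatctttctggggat

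The Cyp2c37 and Cyp2c50 windows were identical at 86.6% of aligned bases. The Cyp2c29 window matched that of Cyp2c39 at 75.7% and that of Cyp2c38 at 70.8%. Lower identities with the other members, counting both Cyp2c39 starts, were found for Cyp2c55 (47.5% to 55.1%), Cyp2c70 (47.1% to 49.6%) and Cyp2c40 (43.6% to 49.6%). With Cyp2c68, which is not a member, the Cyp2c40 window was identical at 75.1%. Identity between unrelated promoters was not computed, so the low values have no baseline. The letters CAAAGTCNA occurred in 1.04% of 32851 mouse promoters of the same length. They were present in the windows of Cyp2c29, Cyp2c39, Cyp2c40, Cyp2c37 and Cyp2c70 and not in those of Cyp2c55, Cyp2c38 and Cyp2c50. In Cyp2c70 the match was CAAAGTCCA, which 0.47% of promoters held, at bases -64 to -56, and an AGGTCA half-site lay beside it at -74 to -69. Cyp2c40 also held CAAAGTCCA, at -45 to -37. So did Cyp2c65 and Cyp2c68, cluster genes outside the member list. AGGTCA was found in 16.26% of promoters and TATAAA in 13.62%. A match of letters is a description of the sequence and not evidence of binding.

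All signals below are the authors' linear MAS5 intensities, scaled on each array to a common trimmed mean. Median signals per array lay between 13.4 and 17.9, and arrays correlated on the log2 scale across probe sets at 0.959 to 0.966 within groups and 0.952 to 0.963 between groups. Fold changes were computed on log2(signal + 3.35), and a gene was called when the adjusted p from limma was under 0.05 over all probe sets tested. Values after ± are standard deviations for signals and standard errors for fold changes, with n = 3 mice per group. The arrays are of whole liver, in which fewer cells of a type and less RNA per cell cannot be told apart. Brightness is not comparable between probe sets, so no member's level is set against another's. The paralogs are alike in sequence and the probes of one may take up transcripts of another, which was not tested.

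**Figure D1:**
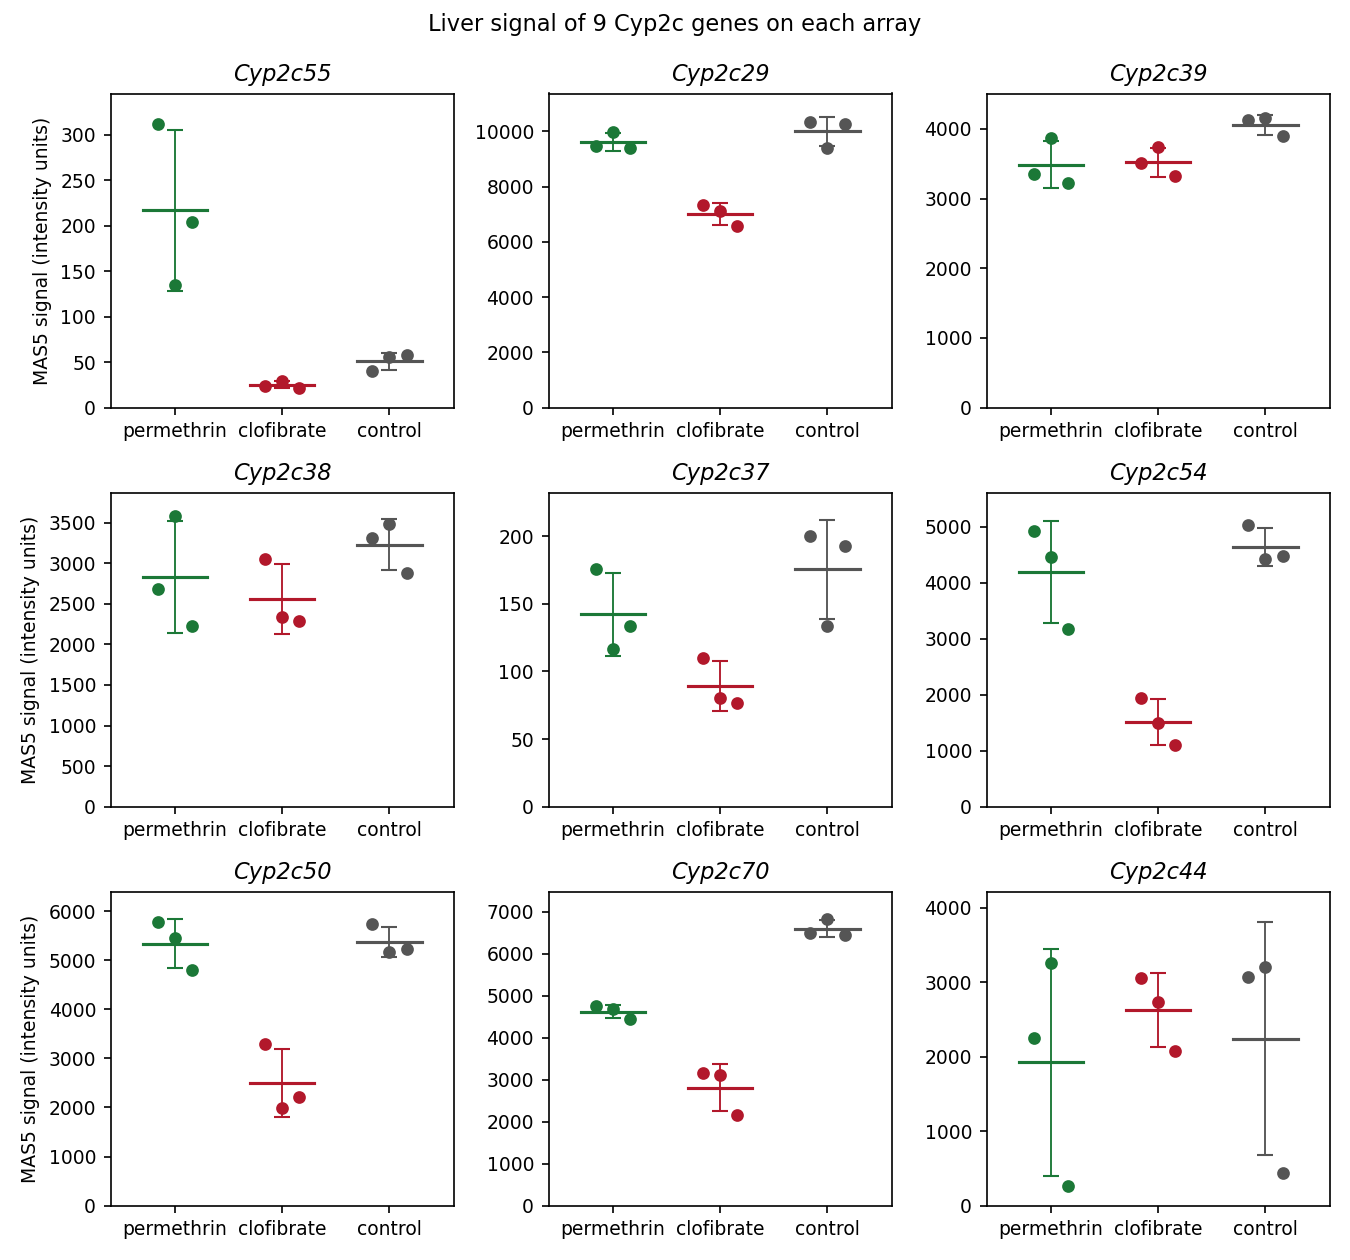
MAS5 signal (linear intensity units, axes from 0) of 9 Cyp2c genes on each of the 9 arrays, with permethrin, clofibrate and control livers side by side; points are mice, horizontal lines are means and bars are standard deviations. The permethrin livers stand above the others for Cyp2c55, the clofibrate livers stand below both other groups for Cyp2c29, Cyp2c37, Cyp2c50, Cyp2c54 and Cyp2c70, and 1 control and 1 permethrin liver have low Cyp2c44.

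Permethrin raised 1 of the 9 members, Cyp2c55, and no member fell past the threshold. Clofibrate raised none and lowered 5, Cyp2c29, Cyp2c37, Cyp2c50, Cyp2c54 and Cyp2c70. Over all 12477 genes, 1.28% were called higher and 0.850% lower with permethrin, and 3.22% were called higher and 3.80% lower with clofibrate. The median log2 fold change of the 9 members was -0.21 with permethrin and -0.92 with clofibrate, beside -0.04 over all genes in each comparison. Without multiple-test adjustment, 3 members with permethrin (1 higher and 2 lower) and 6 with clofibrate (all lower) had a limma p under 0.05. The share of all genes at an unadjusted p under 0.05 is not given here. Unadjusted counts, also those of the gene lists below, therefore have no background to be read against. Both treated groups were set against the same 3 control mice, so these comparisons are not independent.

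Cyp2c55, which hydroxylates arachidonic acid and is best known from the mouse colon, had signals of 311, 135 and 204 in permethrin livers, against 40.4, 55.6 and 57.4 in control livers. Every permethrin liver lay above every control liver. The rise was 3.87-fold on the offset log scale (log2 fold change 1.95 ± 0.27, 95% interval 1.36 to 2.54, limma adjusted p = 0.00422). Clofibrate livers had Cyp2c55 signals of 24.1, 29.8 and 21.8, all under the lowest control liver. That difference had a log2 fold change of -0.92 ± 0.27 and missed the threshold (limma adjusted p = 0.0743). The order of the groups for Cyp2c55 was therefore permethrin, control and clofibrate, with no overlap between neighbours, and the step from clofibrate to control was the one not called. Set directly against clofibrate livers, permethrin livers had 7.34-fold more Cyp2c55 signal (log2 fold change 2.87 ± 0.27, limma adjusted p = 0.000929). Permethrin livers also varied most among themselves, with a standard deviation of 88.6 around a mean of 217, against 4.14 around 25.3 in clofibrate livers and 9.34 around 51.2 in control livers.

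Because Cyp2c55 is a gene of the gut as well as the liver, the levels of intestinal markers are given beside it. The summed signal of 8 such markers, 4 of them bright enough to test, was 1362 to 1669 in permethrin livers, 1629 to 1954 in clofibrate livers and 834 to 1229 in control livers, and most of it came from Fabp2, a fatty acid binding protein, which was higher with clofibrate by 0.99 on the log2 scale and was the 1 marker called. Of the 8 markers, 2 (Vil1 and Lct) stayed below the filter level of 15.6 on all 9 arrays. Cdx2, Muc2 and Krt20 reached at most 19.1 on any array. Car1, a carbonic anhydrase, averaged 48.6 in permethrin livers, 29.7 in clofibrate livers and 53.2 in control livers. Tff3, a secreted trefoil peptide, averaged 20.2, 16.8 and 43.0 in permethrin, clofibrate and control livers and was not called. The part of intestinal RNA in the Cyp2c55 signal was not tested.

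Cyp2c29, a P450 of hepatocytes that forms arachidonic acid epoxides and responds to phenobarbital in mice, showed the smallest of the 5 falls with clofibrate. Its signals were 7336, 7128 and 6567 in clofibrate livers, against 10340.4, 9404 and 10275.9 in control livers, with no overlap. The fall was 1.43-fold (log2 fold change -0.51 ± 0.08, limma adjusted p = 0.00338). Permethrin livers had 9483, 9979 and 9389, within or just below the range of the control livers. The log2 fold change with permethrin was -0.06 ± 0.08, with an interval of -0.23 to 0.12 (limma adjusted p = 0.814). Each permethrin liver exceeded each clofibrate liver, by a log2 fold change of 0.46 ± 0.08 (limma adjusted p = 0.0319). That call held in only 6 of 19 alternative settings leaving out at most 1 liver.

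Cyp2c37, Cyp2c54, Cyp2c50 and Cyp2c70 are neighbours, in places 11 to 14 along the chromosome among the 15 protein-coding Cyp2c genes, and each of them fell with clofibrate. Cyp2c37, an arachidonic acid hydroxylase, had signals of 110, 80.7 and 76.5 in clofibrate livers, against 201, 134 and 193 in control livers. The groups did not overlap, and the fall was 1.93-fold (log2 fold change -0.95 ± 0.21, limma adjusted p = 0.0239). Its permethrin livers, at 176, 117 and 134, overlapped the control livers, and the highest clofibrate liver came close to the lowest permethrin one. The difference with permethrin was -0.30 ± 0.21 on the log2 scale (limma adjusted p = 0.590), and that between permethrin and clofibrate 0.65 ± 0.21 (limma adjusted p = 0.239).

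Cyp2c54, an epoxygenase, had the largest fall among the members. Its signals were 1933, 1503 and 1105 in clofibrate livers, against 5038, 4417 and 4481 in control livers. All clofibrate livers lay far below the lowest control liver, and the fall was 3.14-fold (log2 fold change -1.65 ± 0.20, limma adjusted p = 0.000728). Permethrin livers spread more widely, at 4928, 4465 and 3179, and overlapped the control livers (log2 fold change -0.17 ± 0.20, interval -0.61 to 0.27, limma adjusted p = 0.767). The permethrin livers exceeded the clofibrate livers by 1.48 ± 0.20 on the log2 scale (limma adjusted p = 0.00869).

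Cyp2c50, another epoxygenase, moved like its neighbour. Signals were 3288, 1992 and 2204 in clofibrate livers, against 5728, 5161 and 5222 in control livers. No clofibrate liver reached the control range, and the fall was 2.20-fold (log2 fold change -1.14 ± 0.16, limma adjusted p = 0.00191). In permethrin livers the signals were 5771, 5446 and 4798, spread over both sides of the control values. The log2 fold change with permethrin was -0.01 ± 0.16, with an interval of -0.36 to 0.34, and permethrin livers exceeded clofibrate livers by 1.13 ± 0.16 (limma adjusted p = 0.984 and 0.0112).

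Cyp2c70, the bile acid hydroxylase, had signals of 3164, 3106 and 2162 in clofibrate livers, against 6505, 6828 and 6459 in control livers. The control values were close together and far above all clofibrate values. The fall was 2.38-fold (log2 fold change -1.25 ± 0.13, limma adjusted p = 0.000318). With permethrin, Cyp2c70 signals were 4752, 4679 and 4440, between both other groups and overlapping neither. The log2 fold change against control was -0.51 ± 0.13, with an interval of -0.80 to -0.22 and a limma adjusted p of 0.0887. A model fitted to the permethrin and control arrays alone called it, with a limma adjusted p of 0.00858. That was the only 1 of 19 alternative settings leaving out at most 1 liver to do so. Under the other scalings the limma adjusted p ran from 0.125 with cyclic loess to 0.492 with the hybridization controls. Permethrin livers had 1.67-fold more Cyp2c70 signal than clofibrate livers (log2 fold change 0.74 ± 0.13, limma adjusted p = 0.0334). That call held in only 8 of 19 such settings.

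**Figure D2:**
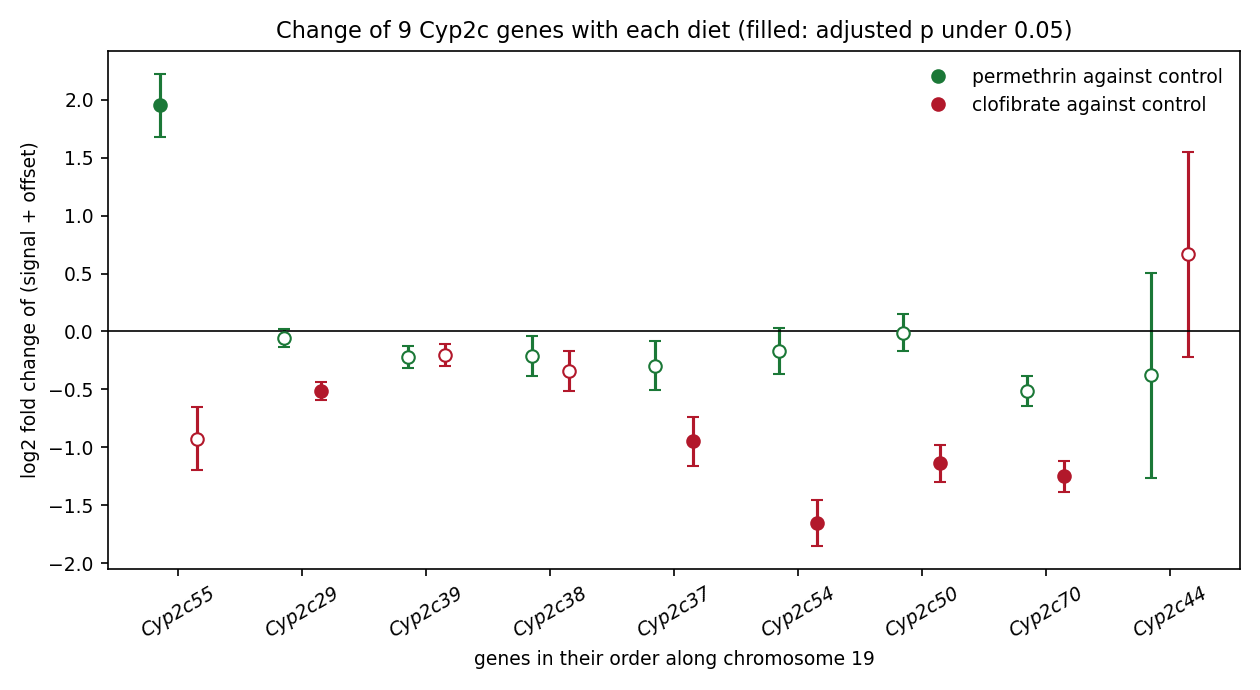
Log2 fold change of (signal + offset) for 9 Cyp2c genes in their order along chromosome 19, permethrin against control in green and clofibrate against control in red; bars are standard errors and filled points have adjusted p under 0.05. Cyp2c55 is the only filled point above 0, with permethrin, and Cyp2c29, Cyp2c37, Cyp2c54, Cyp2c50 and Cyp2c70 are filled below 0 with clofibrate.

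Cyp2c39, Cyp2c38 and Cyp2c44 had no called change. Cyp2c39, a retinoic acid hydroxylase, gave 3358, 3870 and 3231 in permethrin livers, 3508, 3739 and 3319 in clofibrate livers and 4126, 4155 and 3896 in control livers. All 6 treated livers were below all control livers, but by small amounts. The log2 fold changes were -0.22 ± 0.09 with permethrin and -0.21 ± 0.09 with clofibrate (limma adjusted p = 0.323 and 0.269). Cyp2c38, which also epoxidises arachidonic acid, gave 2681, 3581 and 2228 in permethrin livers, 3053, 2343 and 2285 in clofibrate livers and 3317, 3489 and 2877 in control livers. Its groups overlapped, with log2 fold changes of -0.21 ± 0.17 and -0.34 ± 0.17 (limma adjusted p = 0.636 and 0.307). The intervals for Cyp2c39 and Cyp2c38 do not show that the groups were equal.

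Cyp2c44, an arachidonic acid epoxygenase, behaved differently from the rest because 2 livers stood apart. Permethrin livers had signals of 2254, 3260 and 266, clofibrate livers 3055, 2733 and 2081, and control livers 3070, 3209 and 437. The third permethrin and the third control liver were thus far below the other 7, which ran between 2081 and 3260. The fit over all arrays gave log2 fold changes of -0.38 ± 0.88 with permethrin and 0.67 ± 0.88 with clofibrate, with intervals of -2.32 to 1.56 and -1.27 to 2.61. With both low livers left out, a choice made after their values were seen, these became -0.21 and -0.28 (limma adjusted p = 0.818 and 0.533). In the same 2 livers the other 8 members showed no comparable gap. The stock is outbred, and the source of the difference between mice was not tested. Without the same pair of livers, Cyp2c55 had a log2 fold change of 2.04 with permethrin and missed the threshold (limma adjusted p = 0.0634), with 2 mice left in each of these groups.

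Cyp2c68, a gene of the same cluster outside the 10 members, had signals of 4369, 2920 and 2195 in permethrin livers, 2419, 3046 and 1600 in clofibrate livers and 3834, 5160 and 3837 in control livers. Its log2 fold change with clofibrate was -0.89 ± 0.26 and did not pass (limma adjusted p = 0.0764). Cyp2c65 stayed below the filter on all 9 arrays, with signals of 1.69 to 9.98.

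Direct comparison of the treated groups called 5 members higher in permethrin than in clofibrate livers, Cyp2c55, Cyp2c29, Cyp2c50, Cyp2c54 and Cyp2c70, and none lower. Over all genes, 0.473% were called higher and 0.264% lower in this comparison. The median of the 9 members was 0.65, beside -0.01 over all genes. Over the 19 alternative settings that left out at most 1 liver, the call held in 19 for Cyp2c55 and 18 for Cyp2c54. It held in 15 for Cyp2c50, but only in 8 for Cyp2c70 and 6 for Cyp2c29. The count was sensitive to the model. It was 3 under cyclic loess, quantile normalization or centring on the median, 2 with scaling to the hybridization controls and 1, Cyp2c55, without the intensity trend. It was 2 without the first permethrin liver or without the third clofibrate liver, and 3 without either other permethrin liver.

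The clofibrate falls coincided with lower signals of bright liver genes in general. Among the 587 genes with a mean signal above 2000, a limit chosen after the values were seen, 25.4% were called lower and 8.86% higher with clofibrate, and their median log2 fold change was -0.20. Of the 9 members, 7 were in that class, and 4 of these were called lower. The corresponding shares with permethrin were 2.73% lower and 6.47% higher, with a median of -0.10. Hepatocyte markers showed the same direction: 5 of 8 were called lower with clofibrate, with a median of -0.41, and 0 of 8 with permethrin, with a median of -0.18. Albumin (Alb), for example, had a log2 fold change of -0.42 ± 0.09 with clofibrate (limma adjusted p = 0.0248). The summed hepatocyte marker signal ran from 61465 to 67480 in permethrin livers, from 49506 to 59463 in clofibrate livers and from 71465 to 77103 in control livers. Under the other 4 scalings 0 to 2 of these 8 markers were called lower with clofibrate, and 1 or 2 were without any one of the 3 control livers or without the third clofibrate liver. At an unadjusted p under 0.05 all 8 were lower with clofibrate and 3 with permethrin. Their part in the falls of the Cyp2c genes was not tested.

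The choice of scaling therefore matters for the weaker falls. The hybridization controls, transcripts added in fixed amounts, averaged 9.97 ± 0.18 in permethrin livers, 9.78 ± 0.12 in clofibrate livers and 10.12 ± 0.16 in control livers on the log2 scale. Scaling to them shifted the median gene by 0.14 with permethrin and by 0.32 with clofibrate. Cyp2c50, Cyp2c54 and Cyp2c70 remained called lower with clofibrate under all 5 scalings, at -0.80, -1.32 and -0.92 with scaling to the hybridization controls (limma adjusted p = 0.0368, 0.00361 and 0.0062). Cyp2c37 was called under all but that one, where its log2 fold change was -0.62 (limma adjusted p = 0.152). Cyp2c29 held its call under cyclic loess at -0.34 (limma adjusted p = 0.0311). It lost it with centring on the median, at -0.43, with quantile normalization, at -0.19, and with the hybridization controls, at -0.18 (limma adjusted p = 0.113, 0.348 and 0.412). The uncalled value of Cyp2c29 with permethrin changed sign to 0.05, 0.07 and 0.09 under those 3 scalings, and that of Cyp2c50 lay between 0.01 and 0.14 under all 4 alternatives. The uncalled value of Cyp2c39 with clofibrate became 0.13 with the hybridization controls.

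**Figure D3:**
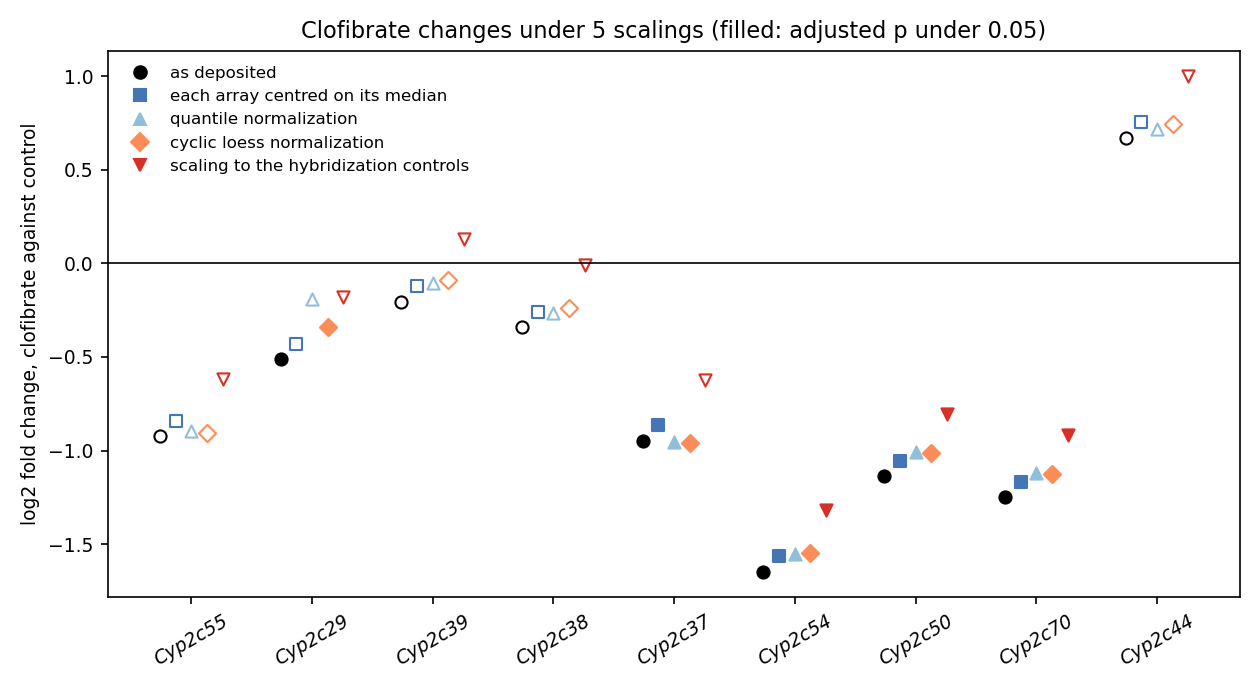
Log2 fold change, clofibrate against control, of 9 Cyp2c genes in chromosome order under 5 scalings of the arrays; filled symbols have adjusted p under 0.05. Cyp2c54, Cyp2c50 and Cyp2c70 are filled under all 5, whereas Cyp2c29 is filled in 2.

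The epoxides that CYP2C enzymes make are cleaved by epoxide hydrolases, and both that were tested, Ephx1 and Ephx2, were higher with each compound. Of 9 tested genes in the epoxide list, 3 were called higher with permethrin and 3 with clofibrate, and none lower; the medians were 0.10 and 0.15. Ephx2, the soluble epoxide hydrolase, averaged 5413 ± 257 in permethrin livers, 6269 ± 692 in clofibrate livers and 3692 ± 68.3 in control livers. Its log2 fold changes were 0.55 and 0.76 (limma adjusted p = 0.0150 and 0.000881). Ephx1, the microsomal epoxide hydrolase, averaged 6205 ± 424, 4680.4 ± 252 and 2554 ± 231 in permethrin, clofibrate and control livers, with log2 fold changes of 1.28 and 0.88 (limma adjusted p = 5.92e-05 and 0.000452). Pla2g6, a phospholipase that frees fatty acids from membranes, had log2 fold changes of 0.85 and 1.21 (limma adjusted p = 0.0121 and 0.000538). The count with permethrin was 1 without the first control liver. Cyp2j5, an epoxygenase of another P450 family, had 0.10 ± 0.08 with permethrin and 0.15 ± 0.08 with clofibrate and was not called.

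Few tested genes of a list on electron and haem supply to P450 enzymes were called. Por, the reductase that passes electrons to P450 enzymes, was not among them. Hmox1, which breaks down haem, was. With permethrin limma called none of 13 tested genes, and 2 had an unadjusted p under 0.05. With clofibrate 2 were called and 7 had an unadjusted p under 0.05. Pgrmc2, a haem-binding membrane protein, was higher by 0.67 and Cyb5a, cytochrome b5, lower by a log2 fold change of -0.34 (limma adjusted p = 0.00918 and 0.0282). The Cyb5a call was absent under each of the other 4 scalings and without any one of the control livers or the second or the third clofibrate liver. The Pgrmc2 call was absent without the third clofibrate liver.

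Among 21 nuclear receptors, cofactors and liver transcription factors, limma called none with clofibrate, where 7 had an unadjusted p under 0.05, and 1 with permethrin, Foxa3, a forkhead factor of hepatocytes, with a log2 fold change of -1.12 (limma adjusted p = 0.0433). Foxa3 averaged 214 ± 5.83 in permethrin livers, 412 ± 116 in clofibrate livers and 485 ± 164 in control livers, and its call was lost without the first or the third control liver or any one permethrin liver. CAR (Nr1i3) had log2 fold changes of 0.25 with permethrin and 0.50 with clofibrate, and PXR (Nr1i2) 0.25 and 0.23, none of them called. Hnf4a averaged 2859 ± 419 in permethrin livers, 2171 ± 64.5 in clofibrate livers and 2893 ± 287 in control livers. Its log2 fold changes were -0.02 and -0.41 (limma adjusted p = 0.957 and 0.0757).

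Between the compounds, 3 of 14 marker genes of CAR and PXR activity were called higher with permethrin and none lower, and none of the 21 receptor and cofactor genes was called. Of the 14 tested CAR and PXR marker genes, 4 were called higher with permethrin and none lower, whereas 2 were called higher and 4 lower with clofibrate. The list medians were 0.20 with permethrin and -0.21 with clofibrate. Leaving out 1 liver at a time gave 2 or 3 higher with permethrin, and with clofibrate 1 to 3 higher and 2 to 4 lower. Cyp2b10, the standard CAR target of mouse liver, averaged 3985 ± 309 in permethrin livers, 342 ± 53.4 in clofibrate livers and 836 ± 234 in control livers. Like Cyp2c55 it was highest with permethrin and lowest with clofibrate, but for Cyp2b10 both changes passed, at 2.28 and -1.26 (limma adjusted p = 8.44e-05 and 0.00212). Abcc4, an export pump, was higher with both, by 2.97 and 2.23. Ces2a, a carboxylesterase, was lower with clofibrate at -1.10 (limma adjusted p = 0.000133). With permethrin it averaged 2628 against 3036 in control livers, and Cyp3a11 of the same list 10061 against 11305, neither called. Of 12 PPAR alpha marker genes, 8 were called higher with permethrin, with a median of 2.01, and 10 were called higher and 1 lower with clofibrate, with a median of 2.22. Between the compounds, 3 of these 12 were called lower with permethrin and none higher. The count called lower was 0 to 2 when 1 liver was left out.

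**Figure D4:**
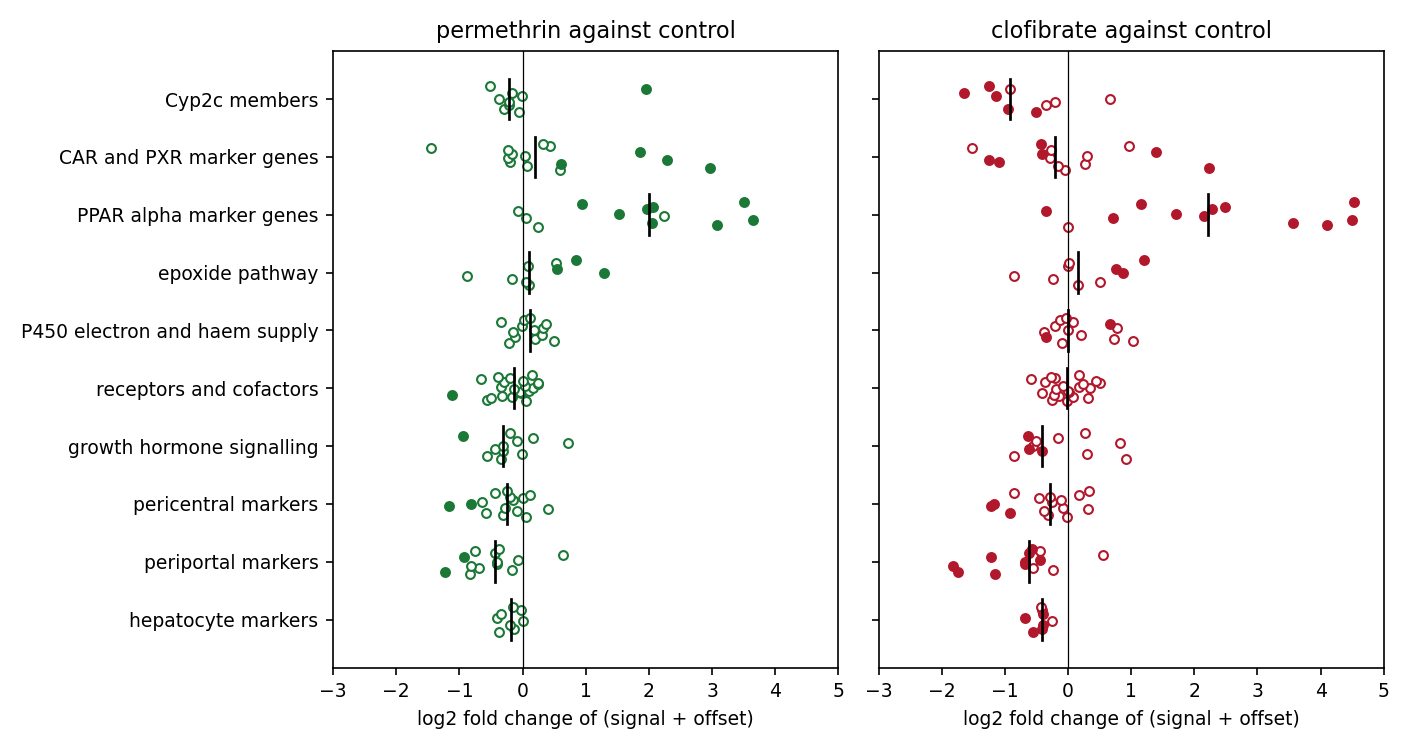
Log2 fold changes of the tested genes in 10 gene lists, permethrin against control on the left and clofibrate against control on the right; each point is a gene, filled where adjusted p is under 0.05, and vertical ticks are list medians. The Cyp2c members lie mostly below 0 with clofibrate, with a median of -0.92, while most PPAR alpha marker genes lie above 0 in both panels, with Fabp1 below 0 in each.

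Genes of growth hormone signalling, which shapes the sex-biased expression of liver P450 genes, were lower where they changed. Of 11 tested, 1 was called lower with permethrin, the transcription factor Stat5b at -0.95 (limma adjusted p = 0.0106), and 3 with clofibrate. Those were the receptor Ghr at -0.41, Stat5b at -0.64 and Igf1, the hormone's secreted mediator, at -0.62 (limma adjusted p = 0.0304, 0.0339 and 0.0081). The call of Stat5b with permethrin was lost without the first control liver, and 1 or 2 genes were called with clofibrate when any 1 liver was left out. No gene of this list was called with clofibrate after centring on the median or scaling to the hybridization controls.

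Zonal markers bear on the Cyp2c genes because many P450 enzymes are made around the central vein. With clofibrate 3 of 15 pericentral markers were called lower, with a median of -0.28, and 9 of 13 periportal markers, with a median of -0.62. With permethrin 2 of each list were called lower, and the medians were -0.24 and -0.44. Cyp1a2, a pericentral P450, was among the 3, at -0.92 with clofibrate. Cyp2e1 and Glul, also of the pericentral list, had -0.37 ± 0.14 and -0.08 ± 0.11 with clofibrate and were not called. Without the first or the third control liver or the third permethrin liver, 1 gene of each list was called lower with permethrin. The periportal count with clofibrate was 3 after centring on the median or scaling to the hybridization controls.

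Markers of other liver cells were mostly not called. Limma called none of 8 Kupffer cell, 8 stellate cell, 3 cholangiocyte or 2 lymphocyte markers in either comparison with control. At an unadjusted p under 0.05, 3 stellate cell markers were lower with permethrin and 4 with clofibrate, and none of the other 3 lists. Of 8 endothelial markers, 1 was called lower with clofibrate, and at an unadjusted p under 0.05 the count was 1 with permethrin and 5 with clofibrate. Pancreatic markers summed to 213 to 331 in permethrin livers, 232 to 284 in clofibrate livers and 1155 to 1486 in control livers, nearly all of it Cela1, an elastase. Of 3 tested, 1 was called lower in each comparison with control, Cela1 at -2.66 with permethrin and -2.67 with clofibrate, and 2 were lower at an unadjusted p under 0.05. Cela2a ran at 16.2 to 18.4 in permethrin livers, 2.50 to 16.6 in clofibrate livers and 27.4 to 34.1 in control livers. Cela3b averaged 25.3, 40.1 and 38.2 in permethrin, clofibrate and control livers. The digestive enzymes Cpa1, Ctrb1 and Cpb1 stayed below the filter on all arrays. The part of these markers in the Cyp2c results was not tested.

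Among tested genes other than Cyp2c genes, the 3 whose log2 signals ran most closely with those of a member were found over the 9 arrays. These arrays form 3 groups, so likeness here reflects the differences between diets as well as those between mice. For Cyp2c55 they were Slc35b1, Lrrc59 and Cyp2b10, with Pearson correlations of 0.971, 0.969 and 0.964. For Cyp2c54 they were Ugt2b1, Fcgr2b and Slc17a2, at 0.971, 0.960 and 0.957, while the members Cyp2c29 and Cyp2c50 were at 0.972 and 0.968. Slc17a2, a phosphate transporter of liver, was also among the 3 nearest to Cyp2c70, at 0.982, and to Cyp2c29, at 0.974. It averaged 749.9 in permethrin livers, 448 in clofibrate livers and 922 in control livers. Ugt2b1, a glucuronosyltransferase, was also among the 3 nearest to Cyp2c50, at 0.962.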

How the data were processed

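Total liver RNA was labelled as biotinylated cRNA, per the labels' protocols, and the authors deposited 1 linear MAS5 intensity per probe set and array. Its version is not given in the sources used here. A mean without the outer 2% of signals was equal on all arrays, so the deposited intensity values had been scaled to it. Of 45037 probe sets, 34945 carried 1 symbol. The 24548 probe sets exceeding 15.6 (the overall median signal) on 3 or more arrays were tested, and the brightest represented a gene. An offset of 3.35, the 20th percentile, was added before log2. All 9 arrays entered 1 limma 3.58.1 model in R 4.3.3 with an intensity trend, and two-sided p-values were adjusted by Benjamini-Hochberg in each of 3 comparisons. Replicates were separate mice. Promoters were aligned with biopython 1.88. Named genes were the members, called and some uncalled genes of the lists, cell type markers and the 3 genes, Cyp2c genes set aside, most alike a member. The members and lists were chosen with earlier results of these data known. The number of arrays limits precision.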

Additional observations from a re-analysis of the deposited data

How the results depend on the processing

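The 23 alternatives covered the offset, filter, scaling, variance model, array weights, arrays in the model, a replicate block and leaving out arrays; leaving out both livers with low Cyp2c44 was chosen after seeing the data. The plan to try a second probe set was not run, since each member has 1. No value changed sign while called. Members called lower with clofibrate numbered 5, or 3 without the intensity trend and with scaling to the hybridization controls (Cyp2c50, Cyp2c54 and Cyp2c70 both times), 4 with centring on the median or quantile normalization (Cyp2c29 lost), 6 with array weights or only the groups compared (Cyp2c55 gained), 4 without both livers with low Cyp2c44, and 4 to 5 when 1 liver was left out; Cyp2c37 was lost without clofibrate replicate 2 or 3 or control replicate 1 or 3. With permethrin against control the count of 1 became 2 in a model of these groups alone and stayed at 1 with any 1 liver left out, while it was 0 without both livers with low Cyp2c44. Over the 19 settings that left out at most 1 liver, Cyp2c55 with permethrin ranged from 1.65 to 2.24 (limma adjusted p = 0.00205 to 0.0345). Its clofibrate value was -1.01 with array weights. Permethrin against clofibrate gave 5 members, but 3 without the filter, with centring on the median, quantile normalization, cyclic loess or only the groups compared, 2 with the hybridization controls, 1 without the trend, and 2 to 5 with 1 liver left out. Same-numbered livers deviated together at correlations of -0.109 to 0.113, and the labels name no pairing of mice. These correlations do not show that same-numbered livers shared no factor. The replicate block left 1 member called with permethrin, 5 with clofibrate and 4 between the compounds. Over all genes the calls of 160 higher and 106 lower with permethrin became 117 and 26 with centring and 144 and 22 with the hybridization controls; with clofibrate 402 and 474 became 305 and 182, and 1015 and 88; between the compounds 59 and 33 became 26 and 7 with centring, 59 and 46 with quantile normalization, 50 and 46 with cyclic loess, and 9 and 34. With 3 mice per group and bright signals whose linearity was not tested, small changes such as those of Cyp2c38 and Cyp2c39 could not be resolved.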
